A study of Homo sapiens
Mus musculus with 5 samples.

Results

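The host genes that encode chemokines and chemokine receptors were followed in tumors grown in mice from a human lung adenocarcinoma line. Members were taken from the mouse table by symbol, as genes named Ccl, Cxcl, Cx3cl or Xcl1 among the ligands and Ccr, Cxcr, Cx3cr, Xcr1 or Ackr among the receptors. This gave 58 of 24628 mouse genes, 36 ligands and 22 receptors. Brain tumors gave 3 libraries and lung tumors gave 2. All 5 tumors were grown from H2030-BrM3, a subline of the lung adenocarcinoma line H2030 that was selected for growth in the brain, in athymic nu/nu mice. Each lung tumor was orthotopic and was started by injecting 100000 cells through the trachea. The route by which the brain tumors were started, the age of the mice and the time of collection stand in no source used here, and the labels name no treatment. Human genes, which belong to the cancer cells, have a table of their own from the same libraries, and the mouse values describe the host tissue.

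Chemokines are small secreted proteins that guide the movement of white blood cells. They are named for the spacing of their first cysteines (C, CC, CXC and CX3C) and signal through membrane receptors coupled to inhibitory G proteins. Inflammatory chemokines are induced at sites of injury, whereas homeostatic chemokines position cells in resting tissue. Atypical receptors bind chemokines without G protein signalling and remove or transport them. In the brain the pair best known is fractalkine, the Cx3cl1 protein made by neurons, and its receptor Cx3cr1 on microglia, the resident macrophages. Athymic mice lack a thymus and so lack most T cells, while their macrophages, neutrophils, natural killer cells and B cells remain.

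Levels are in RPKM, which corrects a gene's reads for its length and for the library's total, and are given in the order brain tumors 1, 2 and 3 and then lung tumors 1 and 2. The read numbers behind them were recovered from the table and are lower limits, since a divisor common to all libraries cannot be seen. Mouse reads numbered 2710983 to 8636094 in the brain tumors, 231156 in lung tumor 1 and 5295159 in lung tumor 2, and made up 3.41% of all reads in lung tumor 1 against 24.4% to 77.9% in the other libraries. In lung tumor 1 a single read was therefore worth a median of 3.28 RPKM over the tested members (0.0882 to 0.280 RPKM in the other libraries), and 15 of the 38 tested members rested on 3 or fewer reads there. Lung tumor 1 also stood apart by gene length: its values lay below the gene means for long genes (median -0.82 on the log2 scale for genes with a median implied length of 4052 bases) but hardly for short ones (-0.08 at 618 bases), and 7, 9 and 8 of the 27 tested ligands lay in the 3 shortest of 5 equal length classes. The labelled organs were checked against their markers. Summed over 6 astrocyte genes the level was 10703 to 13144 RPKM in the brain tumors and 151 to 187 in the lung tumors. The sum over 6 lung epithelial genes was 17.5 to 54.9 RPKM in the brain tumors, 948 in lung tumor 1 and 64785 in lung tumor 2. The 12 microglia and macrophage markers had 0 calls, whereas 4 of 7 monocyte, 4 of 6 tested neutrophil and 4 of 6 fibroblast markers were lower in the brain tumors. The part of these differences in the results was not tested, and fewer cells of a type cannot be told apart from less RNA per cell in such bulk samples. Nothing in the labels ties the libraries to separate animals, so the spread behind each p-value may be technical.

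The comparison of the brain with the lung tumors asked how the host side of the tumors differed between the organs. Of the members, 38 reached an RPKM of 1 in at least 2 libraries and were tested, 27 ligands and 11 receptors. With limma on log2(RPKM + 1) and an adjusted p under 0.05, 3 ligands (Cx3cl1, Ccl27a and Ccl28) and 1 receptor (Ackr1) were higher in the brain tumors. The lower genes were 11 ligands and 5 receptors. Over all 15431 tested mouse genes 14.3% were higher and 8.12% lower in the brain tumors. The median log2 fold change was -2.65 over the tested ligands, -1.39 over the tested receptors and 0.08 over all tested mouse genes. These counts and medians are descriptions, because 6 members (Ccl24, Cxcl2, Cxcl15, Cxcl17, Ccl21a and Ackr4) passed the filter through the lung tumors alone and 2 (Ccl27a and Ccl28) through the brain tumors alone. All 3 brain tumors lay below both lung tumors for 23 of the 38 and above them for 4, where 26.2% and 30.0% of all tested genes did so. Calls depended on the number of libraries: without brain tumor 1, 2 or 3 the lower ligands numbered 4, 3 and 4 and the lower receptors 3, 0 and 0. The higher ligands then numbered 2, 1 and 1 and the higher receptors 1, 1 and 0. Leaving out a lung tumor leaves 1 lung library, which is then taken to spread as the brain libraries do. Without lung tumor 1 or 2 more of all tested mouse genes were called than with all 5 libraries. A call gained or kept in these fits, in the paragraphs below, is therefore a description only.

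**Figure D1:**
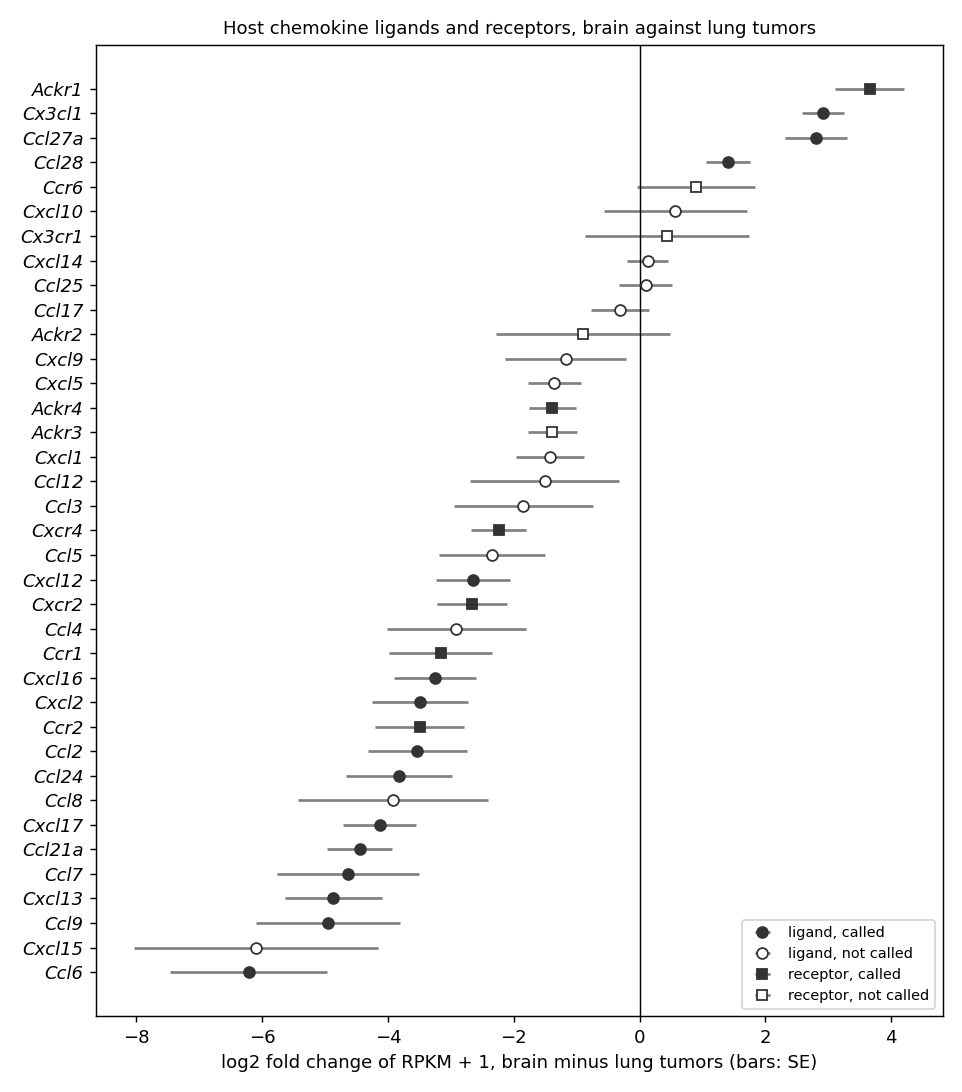
Log2 fold change of RPKM + 1, brain minus lung tumors, for 37 of the 38 tested members, with bars of 1 SE; circles are ligands, squares are receptors, and filled symbols mark genes with a limma adjusted p under 0.05. The 4 filled symbols right of 0 are Ackr1, Cx3cl1, Ccl27a and Ccl28, and the 16 filled symbols to the left run from Ackr4 at -1.38 to Ccl6 at -6.21.

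Among the ligands the highest level in each brain tumor was that of Cx3cl1 (ENSMUSG00000031778.12), the membrane-bound chemokine fractalkine. It stood at 421, 612 and 398 RPKM in the brain and at 52.8 and 70.8 RPKM in the lung. Every brain tumor was far above both lung tumors, and the lung tumors lay close together. The means were 477 ± 118 RPKM in the brain (mean ± SD, n = 3) and 61.8 ± 12.7 in the lung tumors (n = 2), and the gene was higher in the brain tumors (log2 fold change 2.92, SE 0.34, limma adjusted p = 0.00369). These values rested on 839, 2210 and 2521 reads for brain against 9 and 275 for lung. Cx3cl1 made up 60.8%, 75.5% and 77.4% of the summed RPKM of all ligands in the brain tumors, against 0.947% and 3.21% in the lung tumors. Neurons, a known source of fractalkine, had summed marker levels of 1446, 1907 and 2354 RPKM in the brain and 32.1 and 35.9 in the lung tumors. The call held in each of the 15 alternative settings, with log2 fold changes of 2.71 to 3.12. Xcl1, the C-type chemokine of natural killer and T cells, was not tested and was at 0.689, 0 and 0 RPKM in the brain and at 0 and 2.83 RPKM in the lung.

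**Figure D2:**
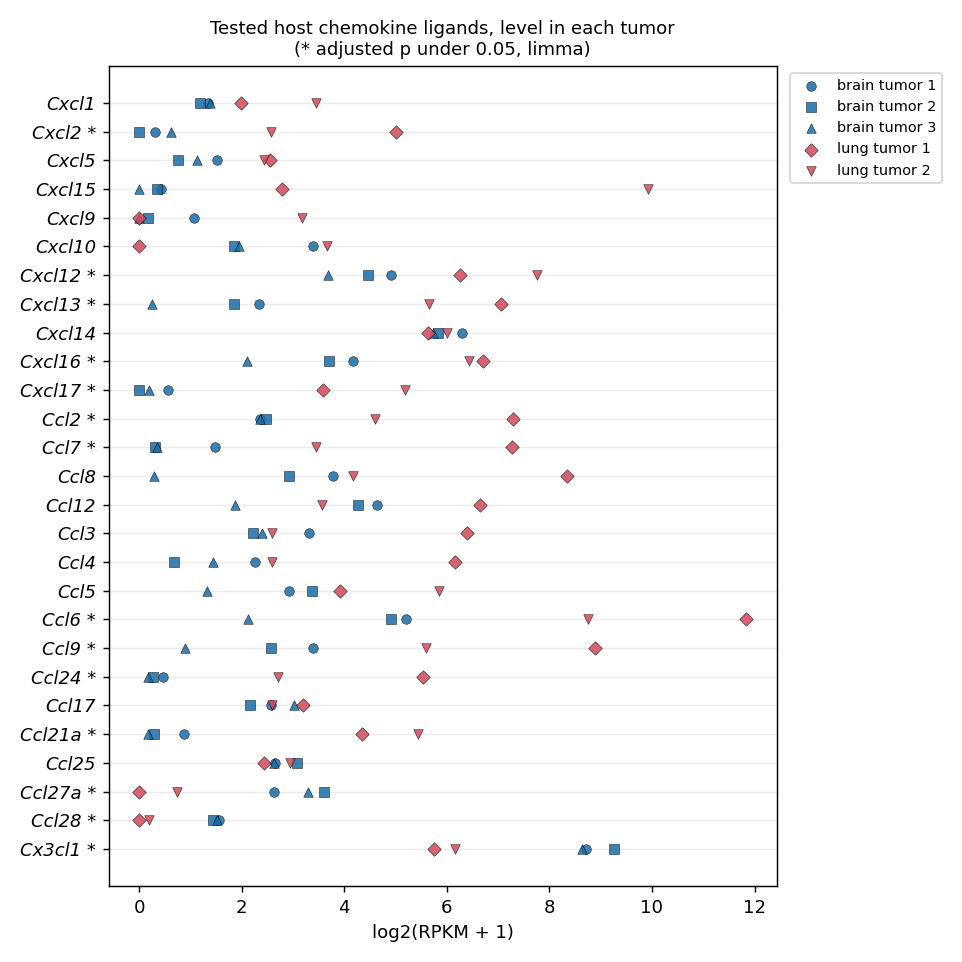
Level of the 27 tested ligands in each of the 5 tumors as log2(RPKM + 1), brain tumors in blue and lung tumors in red, in order of their receptor groups; an asterisk marks a limma adjusted p under 0.05. Cx3cl1, Ccl27a and Ccl28 have all blue symbols to the right of the red ones, and Ccl6 in lung tumor 1 is the point farthest to the right.

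The CXC ligands listed here under Cxcr2 are taken as a group that draws neutrophils, and the binding of Cxcl15 to this receptor is uncertain. Of 5 members 4 were tested, and for all 4 each brain value was below both lung values, but 1, Cxcl2, passed the test. Cxcl2, the macrophage inflammatory protein 2, was at 0.243, 0 and 0.535 RPKM in the brain and at 31.2 and 4.98 RPKM in the lung (log2 fold change -3.49, SE 0.76, limma adjusted p = 0.0259). Lung tumor 1 was the higher of the lung tumors, and the brain values stood for 1, 0 and 7 reads. The keratinocyte chemokine Cxcl1 was at 1.53, 1.27 and 1.61 RPKM in the brain and at 2.99 and 9.95 RPKM in the lung (log2 fold change -1.42, adjusted p = 0.112) and did not pass, though it did without lung tumor 1 (adjusted p = 0.0123). Cxcl5, made by epithelial cells, was at 1.89, 0.695 and 1.19 RPKM in the brain and at 4.90 and 4.41 RPKM in the lung (log2 fold change -1.36, adjusted p = 0.0690), so that the groups were apart but the test was missed. Without lung tumor 2 it passed (adjusted p = 0.0478). Cxcl15, known as lungkine and made by lung epithelium, was at 0.339, 0.281 and 0 RPKM in the brain and at 5.94 and 966 RPKM in the lung (log2 fold change -6.10, adjusted p = 0.0723). The high value came from lung tumor 2 alone, with 11117 reads against 3 in lung tumor 1, and the lung epithelial markers given above moved with it. In lung tumor 2 Cxcl15 made up 43.8% of the summed RPKM of all ligands. Cxcl3 was not tested and was listed at 0 in all 3 brain tumors, with 2 and 7 reads (3.73 and 0.573 RPKM) in the lung tumors. The neutrophil markers, summed over 8 genes, were at 33.0, 26.7 and 10.96 RPKM in the brain and 544 and 410.5 in the lung tumors, and 4 of 6 tested (S100a8, S100a9, Retnlg and Mmp8) were lower in the brain tumors. In each library but lung tumor 2, 2 of the 8 were at 0. Ly6g was 1 of them each time, and the other was Retnlg in brain tumor 1 and a different gene elsewhere. The Cxcl2 call ended without brain tumor 1 (adjusted p = 0.0890), 2 (0.104) or 3 (0.0939), and the gene was below the filter without either lung tumor.

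The CXC ligands of Cxcr3 are induced by interferon. Cxcl10 was at 9.43, 2.60 and 2.87 RPKM in the brain and at 0 and 11.6 RPKM in the lung and Cxcl9 at 1.11, 0.122 and 0 RPKM in the brain and at 0 and 8.06 RPKM in the lung. Both overlapped between the groups and did not pass (log2 fold change 0.57, adjusted p = 0.747 for Cxcl10; log2 fold change -1.18, adjusted p = 0.410 for Cxcl9). Lung tumor 1 was at 0 for both, where 3 reads would have been 10.3 RPKM of Cxcl10 and 7.76 RPKM of Cxcl9. Levels like those of brain tumors 2 and 3 could therefore have been missed at this depth. Without lung tumor 2 Cxcl10 was higher in the brain tumors (adjusted p = 0.0293, log2 fold change 2.39), and without lung tumor 1 its log2 fold change was -1.26. Cxcl9 was lower in the brain tumors without lung tumor 1 (adjusted p = 0.0178, log2 fold change -2.77). Cxcl11, not tested, was at or below 0.296 RPKM in every library.

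The homeostatic and other CXC ligands held 4 of the 11 lower ligands. Cxcl12, which retains stem cells and B cells through Cxcr4, was at 29.3, 21.1 and 11.9 RPKM in the brain and at 75.5 and 216 RPKM in the lung (log2 fold change -2.65, SE 0.59, limma adjusted p = 0.0268). The lung values were both above all brain values, and lung tumor 2 was the higher. Cxcl13, which forms B cell follicles, was at 4.07, 2.60 and 0.197 RPKM in the brain and at 132 and 49.0 RPKM in the lung (log2 fold change -4.87, SE 0.77, limma adjusted p = 0.00965). Cxcl16, a membrane-bound chemokine and scavenger receptor of macrophages, was at 16.9, 11.98 and 3.27 RPKM in the brain and at 104 and 85.1 RPKM in the lung (log2 fold change -3.25, SE 0.65, limma adjusted p = 0.0196), with the lung tumors close together and brain tumor 3 the lowest. The mucosal chemokine Cxcl17 was at 0.474, 0 and 0.149 RPKM in the brain and at 11.1 and 35.3 RPKM in the lung (log2 fold change -4.13, SE 0.58, limma adjusted p = 0.00651), with 1, 0 and 1 reads for brain and 2 and 145 for lung. With the reads of each group pooled, the lung level of Cxcl17 was higher by a factor of 216 (exact 95% counting interval 58.8 to 1803). This interval was computed for a gene already called and covers counting error only. Lung tumor 2 held 145 of the 147 lung reads. By contrast Cxcl14, a chemokine made by epithelium, fibroblasts and neurons, was the second most abundant ligand of each brain tumor and was at 77.9, 55.5 and 51.9 RPKM in the brain and at 48.6 and 63.1 RPKM in the lung. Its groups overlapped (log2 fold change 0.13, SE 0.33, limma adjusted p = 0.796). Summed over 6 genes, fibroblast markers were at 839.8, 233 and 164 RPKM in the brain and 16582 and 9563 in the lung tumors, and B and plasma cell markers (7 genes found) at 3.99, 0.941 and 3.24 RPKM in the brain and 32.4 and 117 in the lung tumors. Of the B and plasma cell markers 4 of 5 tested (Jchain, Cd79b, Ms4a1 and Mzb1) were lower in the brain tumors, and 3 of the 7 were at 0 in lung tumor 1. The part of these cells in the results was not tested. The call of Cxcl13 held without each library in turn. Cxcl17, which passed the filter through the lung tumors alone, could not be tested without either of them. Cxcl12 lost its call without brain tumor 1 (adjusted p = 0.0610), 2 (0.0970) or 3 (0.0998), and Cxcl16 without brain tumor 2 (0.0686).

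The CC ligands listed here under Ccr2 are taken as a group that calls monocytes into tissue. Binding to the mouse receptor was not checked for each member, and that of Ccl8 is uncertain. All 4 were tested and 2 were lower in the brain tumors. Ccl2, the monocyte chemoattractant protein 1, was at 4.15, 4.59 and 4.16 RPKM in the brain and at 155 and 23.2 RPKM in the lung (log2 fold change -3.54, SE 0.78, limma adjusted p = 0.0271). Its brain values hardly varied, while lung tumor 1 was 6.65 times lung tumor 2. Ccl7 was at 1.80, 0.249 and 0.283 RPKM in the brain and at 153 and 9.93 RPKM in the lung (log2 fold change -4.63, SE 1.14, limma adjusted p = 0.0359), with brain values of 4, 1 and 2 reads. Ccl8, a chemokine of tissue macrophages, was at 12.7, 6.62 and 0.222 RPKM in the brain and at 322 and 17.0 RPKM in the lung (log2 fold change -3.92, adjusted p = 0.114) and Ccl12, a Ccr2 ligand of mice, at 24.1, 18.4 and 2.67 RPKM in the brain and at 99.4 and 10.9 RPKM in the lung (log2 fold change -1.51, adjusted p = 0.390). For Ccl12 brain tumors 1 and 2 lay above lung tumor 2, so the groups overlapped. Each of the 4 was highest in lung tumor 1, by 6.65 to 18.9 times over lung tumor 2. The microglia and macrophage markers, summed over 12 genes, were at 1543, 1516 and 474 RPKM in the brain and 5736 and 724 in the lung tumors, so that they too were highest in lung tumor 1; their part in these values was not tested. The calls of Ccl2 and Ccl7 were lost without brain tumor 1 (adjusted p = 0.0917 and 0.0860), 2 (0.0981 and 0.124) or 3 (0.110 and 0.141). Without lung tumor 1 they held (0.00625 and 0.0210) with log2 fold changes of -2.19 and -2.73. Leaving out lung tumor 2, Ccl8 and Ccl12 passed as well (adjusted p = 0.00947 and 0.0490), and without lung tumor 1 their log2 fold changes were -1.84 and 0.03.

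The CC ligands Ccl3, Ccl4, Ccl5, Ccl6 and Ccl9 are made by macrophages and lymphocytes. Ccl6 (ENSMUSG00000018927.3), a chemokine of mouse macrophages, was at 35.8, 29.2 and 3.36 RPKM in the brain and at 3655 and 431 RPKM in the lung (log2 fold change -6.21, SE 1.25, limma adjusted p = 0.0198). This was the largest change of the called members on the log2(RPKM + 1) scale, while with a pseudocount of 0.1 that of Cxcl17 was larger. It was the most abundant ligand of lung tumor 1, where it made up 65.6% of the summed RPKM of the ligands, and the second of lung tumor 2 (19.5%). The values rested on 77, 114 and 23 reads for brain against 673 and 1807 for lung. Ccl9, a related macrophage chemokine, was at 9.53, 4.91 and 0.866 RPKM in the brain and at 473 and 47.6 RPKM in the lung (log2 fold change -4.96, SE 1.15, limma adjusted p = 0.0304). Both genes were lowest in brain tumor 3 and about as far apart between the lung tumors (8.49 and 9.94 times). The macrophage inflammatory proteins Ccl3 and Ccl4 had 8.94, 3.64 and 4.29 against 82.5 and 5.07 RPKM (log2 fold change -1.85, adjusted p = 0.270) and 3.82, 0.603 and 1.72 against 70.2 and 5.04 RPKM (log2 fold change -2.91, adjusted p = 0.111). For Ccl3 brain tumor 1 lay above lung tumor 2. Without lung tumor 2 both passed (adjusted p = 0.00198 and 0.00208), and without lung tumor 1 the log2 fold changes were 0.04 and -1.13. Ccl5, known as RANTES and made by T and natural killer cells, was at 6.61, 9.29 and 1.51 RPKM in the brain and at 14.0 and 56.7 RPKM in the lung (log2 fold change -2.34, adjusted p = 0.0987), highest in lung tumor 2, and passed without lung tumor 1 (adjusted p = 0.0241). The T and natural killer cell markers (11 genes found) were at 5.18, 10.4 and 3.48 RPKM in the brain and 21.4 and 123 in the lung tumors. Of these 2 of 5 tested (Gzma and Lck) were lower in the brain tumors, and 8 of the 11 were at 0 in lung tumor 1, Cd3d, Cd3e and Cd3g among them. The calls of Ccl6 and Ccl9 were lost without brain tumor 1 (adjusted p = 0.0513 and 0.0635), 2 (0.0626 and 0.0981) or 3 (0.0656 and 0.111), and held without lung tumor 1 (0.0276 and 0.0386). The log2 fold changes without lung tumor 1 were -4.67 and -3.32. Markers of alveolar macrophages (8 genes found) were at 88.0, 49.7 and 38.7 RPKM in the brain and 3386 and 676 in the lung tumors. The sum in lung tumor 1 was mostly Marco, at 2.20, 0.347 and 0.0988 against 3210.3 and 29.2 RPKM, and 5 of the 8 were at 0 there, while Car4 and Itgax were higher in lung tumor 2. Marco and Mrc1, 2 of 5 tested, were lower in the brain tumors.

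Among ligands of the eosinophil receptor Ccr3 and of Ccr4, 2 of 4 members were tested. Ccl24, an eotaxin made by macrophages, was lower in the brain tumors, at 0.388, 0.215 and 0.122 RPKM in the brain and at 45.4 and 5.58 RPKM in the lung (log2 fold change -3.82, SE 0.84, limma adjusted p = 0.0263). Each brain value was 1 read, and the lung values were 10 and 28 reads, a pooled ratio of lung to brain of 37.3 (exact 95% counting interval 11.8 to 189). That interval, too, was computed for a gene already called and covers counting error only. Leaving out brain tumor 1, 2 or 3 ended the call (adjusted p = 0.0859, 0.0993 and 0.110), and without either lung tumor the gene was below the filter. Ccl17, a ligand of Ccr4 made by dendritic cells, was at 4.92, 3.49 and 7.07 RPKM in the brain and at 8.22 and 5.05 RPKM in the lung and overlapped between the groups (log2 fold change -0.32, adjusted p = 0.647). The eotaxin Ccl11 was at 0.999, 0.184 and 0.210 against 0 and 3.59 RPKM and was not tested. Ccl22 was seen in lung tumor 2 alone (5.07 RPKM).

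The lymphoid and mucosal CC ligands differed among themselves. Ccl21a, which guides dendritic cells and T cells to lymph nodes, was lower in the brain tumors, at 0.829, 0.229 and 0.130 RPKM in the brain and at 19.4 and 42.5 RPKM in the lung (log2 fold change -4.45, SE 0.51, limma adjusted p = 0.00360). Its reads are uncertain, because the mouse genome holds near-identical copies of this gene, and they numbered 2, 1 and 1 for brain and 4 and 200 for lung. It passed the filter through the lung tumors alone and could not be tested without either of them. Summed markers of lymphatic endothelium, a known source of Ccl21, were at 63.9, 52.5 and 40.1 RPKM in the brain and 178 and 186 in the lung tumors over 4 genes. These moved apart: Lyve1 was lower in the brain tumors, at 1.76, 2.16 and 0.982 against 119 and 45.6 RPKM, and Prox1 was higher, at 11.1, 6.06 and 12.5 against 0 and 1.24 RPKM. In contrast Ccl27a and Ccl28, both ligands of Ccr10 known from skin and mucosa, were higher in the brain tumors. Ccl27a was at 5.20, 11.1 and 8.80 RPKM in the brain and at 0 and 0.667 RPKM in the lung (log2 fold change 2.81, SE 0.50, limma adjusted p = 0.0133) and Ccl28 at 1.93, 1.71 and 1.88 RPKM in the brain and at 0 and 0.149 RPKM in the lung (log2 fold change 1.40, SE 0.35, limma adjusted p = 0.0394). Lung tumor 1 was listed at 0 for both, where 3 reads would have been 22.8 and 3.39 RPKM, more than any brain tumor had. Lung tumor 2 had 2 reads of Ccl27a and 3 of Ccl28 against 8 to 62 reads in the brain tumors. Over pooled reads the ratio of brain to lung was 13.9 (exact 95% counting interval 3.73 to 117) for Ccl27a and 12.9 (exact 95% counting interval 4.31 to 63.5) for Ccl28, and these intervals cover counting error only. Ccl27a also has near-identical copies in the mouse genome, so its reads are uncertain. The Ccl27a call ended without brain tumor 2 (adjusted p = 0.0632) or 3 (0.0649). That of Ccl28 was lost without brain tumor 1 (0.0917), 2 (0.0994), 3 (0.0892) or lung tumor 1 (0.0772), with quantile normalization (0.364, log2 fold change 0.47) and with gene-length correction (0.174, log2 fold change 0.84). Ccl25, the thymus and gut chemokine, was at 5.24, 7.45 and 5.18 RPKM in the brain and at 4.38 and 6.72 RPKM in the lung and overlapped (log2 fold change 0.09, adjusted p = 0.885). Ccl19 was at most 0.496 RPKM in any library, and Ccl1, Ccl20 and the pseudogene Ccl19-ps1 were above 0 in lung tumor 2 alone.

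Among the receptors Ackr1 (ENSMUSG00000037872.5), the Duffy antigen receptor, which binds inflammatory chemokines on venules and red cells, was the 1 gene higher in the brain tumors. It was at 35.0, 27.5 and 42.2 RPKM in the brain and at 3.76 and 0.659 RPKM in the lung. All brain values were above both lung values, and its brain values varied little, with brain tumor 3 the highest. The means were 34.9 ± 7.36 RPKM in the brain (mean ± SD, n = 3) and 2.21 ± 2.19 in the lung tumors (n = 2) (log2 fold change 3.66, SE 0.55, limma adjusted p = 0.00810), and they rested on 109, 155 and 418 reads for brain against 1 and 4 for lung. Leaving out brain tumor 3 ended the call (adjusted p = 0.0555, log2 fold change 3.51). Blood vessel markers, summed over 7 genes, were at 376, 292 and 179 RPKM in the brain and 184 and 1704 in the lung tumors. Platelet and red cell markers (7 genes) were at 157, 37.0 and 13.5 RPKM in the brain and 4809 and 2189.5 in the lung tumors. Among the brain tumors both sums were lowest in brain tumor 3. The part of these cells in the Ackr1 values was not tested, and the blood vessel list does not single out venules. None of the other atypical receptors was higher in the brain tumors. Ackr4, a scavenger of Ccl19, Ccl21 and Ccl25, was lower in the brain tumors, at 0.301, 0 and 0.237 RPKM in the brain and at 1.76 and 2.39 RPKM in the lung (log2 fold change -1.38, SE 0.37, limma adjusted p = 0.0456), on 1 read in lung tumor 1. It lost its call without brain tumor 1 (0.0936), 2 (0.136) or 3 (0.102), with median-ratio scaling (0.0509) and with a pseudocount of 0.1 (0.0772), and without either lung tumor it was below the filter. Ackr3, the scavenger of Cxcl12, was at 11.2, 9.87 and 17.2 RPKM in the brain and at 29.2 and 39.8 RPKM in the lung; its groups did not overlap but it missed the threshold (log2 fold change -1.39, SE 0.39, limma adjusted p = 0.0519). Ackr3 passed without lung tumor 1 (0.0259) or 2 (0.0456). Ackr2, which removes inflammatory CC chemokines, was at 1.42, 4.08 and 0.733 RPKM in the brain and at 0 and 26.0 RPKM in the lung (log2 fold change -0.91, adjusted p = 0.664) and was highest in lung tumor 2. In lung tumor 1, 3 reads of Ackr2 would have been 4.54 RPKM, more than any brain tumor had. Without lung tumor 1, which was at 0, Ackr2 was lower in the brain tumors (adjusted p = 0.0134, log2 fold change -3.28), and without lung tumor 2 the log2 fold change was 1.47.

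**Figure D3:**
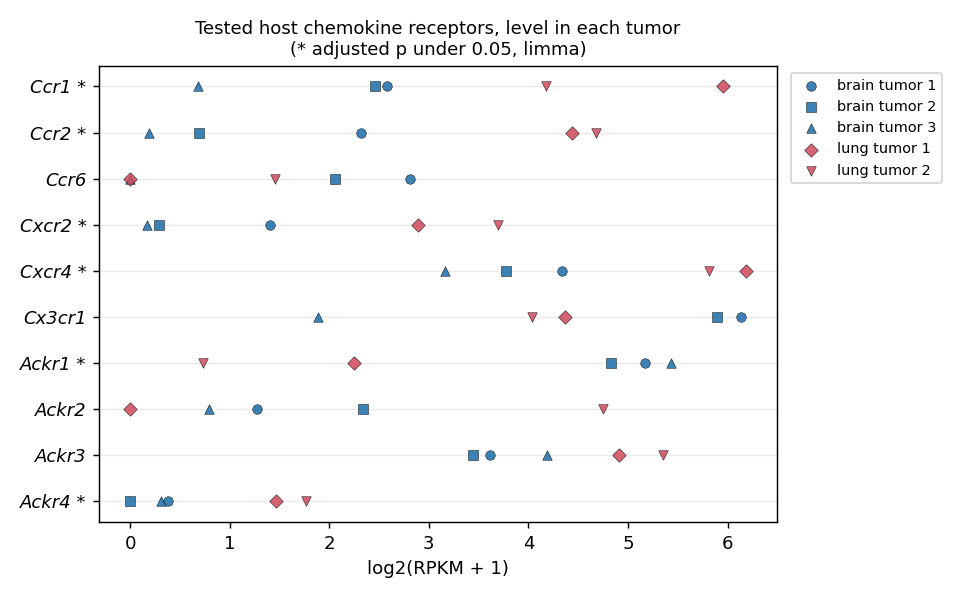
Level of 10 of the 11 tested receptors in each of the 5 tumors as log2(RPKM + 1), brain tumors in blue and lung tumors in red; an asterisk marks a limma adjusted p under 0.05. Ackr1 is the receptor with all blue symbols to the right of the red ones, and brain tumor 3 (triangle) lies far left of the other brain tumors for Cx3cr1.

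Ccr1, Ccr2, Cxcr2 and Cxcr4, receptors of circulating white cells, were lower in the brain tumors. Ccr2, the receptor of inflammatory monocytes, was at 3.98, 0.611 and 0.139 RPKM in the brain and at 20.7 and 24.7 RPKM in the lung (log2 fold change -3.50, SE 0.70, limma adjusted p = 0.0199). Ccr1, found on monocytes and neutrophils, was at 4.97, 4.50 and 0.601 RPKM in the brain and at 61.0 and 17.0 RPKM in the lung (log2 fold change -3.16, SE 0.82, limma adjusted p = 0.0425). In both, brain tumor 3 was lowest and the groups were apart. Cxcr2, the neutrophil receptor, was at 1.64, 0.227 and 0.129 RPKM in the brain and at 6.40 and 11.9 RPKM in the lung (log2 fold change -2.67, SE 0.56, limma adjusted p = 0.0228), with 12, 3 and 3 reads for brain and 4 and 170 for lung. Cxcr4, the widely expressed Cxcl12 receptor, was at 19.2, 12.6 and 7.96 RPKM in the brain and at 71.6 and 55.1 RPKM in the lung (log2 fold change -2.24, SE 0.44, limma adjusted p = 0.0183). Both lung values were above all brain values, and the means were 13.3 ± 5.63 RPKM in the brain (mean ± SD, n = 3) and 63.3 ± 11.7 in the lung tumors (n = 2). The monocyte markers, summed over 7 genes, were at 207, 126 and 77.1 RPKM in the brain and 1701 and 2365 in the lung tumors. Fn1 was the largest part of this sum in each library. Of the 7 markers 4 were lower in the brain tumors, while Ly6c2, F13a1 and Vcan overlapped between the groups and were not called. With brain tumor 2 or 3 left out, the 4 calls were lost. The adjusted p without brain tumor 2 was 0.0901 for Ccr2, 0.107 for Ccr1, 0.0997 for Cxcr2 and 0.0844 for Cxcr4. Without brain tumor 3 it was 0.0764, 0.111, 0.0934 and 0.0610. Ccr1 also lost its call without brain tumor 1 (0.0897) or lung tumor 1 (0.0799). With a pseudocount of 0.1 in place of 1, Cxcr4 was the 1 lower receptor left of 5.

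Cx3cr1, the fractalkine receptor of microglia and monocytes, was at 69.3, 58.5 and 2.70 RPKM in the brain and at 19.6 and 15.4 RPKM in the lung (log2 fold change 0.44, SE 1.31, limma adjusted p = 0.830). Brain tumors 1 and 2 were above both lung tumors and brain tumor 3 below them, so that the groups overlapped. Without brain tumor 3 the log2 fold change of Cx3cr1 was 1.82 (adjusted p = 0.0546). The values of Cx3cr1 rested on 662, 1012 and 82 reads for brain against 16 and 287 for lung. Ccr6, found on B cells and dendritic cells, was at 6.01, 3.17 and 0 RPKM in the brain and at 0 and 1.74 RPKM in the lung (log2 fold change 0.90, adjusted p = 0.518) and was at 0 in brain tumor 3 and lung tumor 1. There 3 reads would have been 0.247 and 9.17 RPKM, and the value for lung tumor 1 is more than any brain tumor had.

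Brain tumor 3 was the lowest of the brain tumors for 15 of 27 tested ligands and 8 of 11 tested receptors, where 46.8% of all tested mouse genes had their lowest brain value there. The mean of brain tumors 1 and 2 was 43.5 times the value of brain tumor 3 for Ccl8, 23.7 times for Cx3cr1, 16.9 times for Cxcl13 and 16.5 times for Ccr2. For Ccl6 it was 9.67 times, for Ccl9 8.34 times and for Ccl12 7.94 times. For Ccr1 it was 7.88 times, for Cxcr2 7.24 times and for Ccl5 5.26 times. In brain tumor 3 the reads were 1 for Ccl8, 2 for Cxcl13, 3 for Cxcr2 and 4 for Ccr2, so their ratios are rough. For Ccr2, brain tumor 2 (0.611 RPKM) was itself far below brain tumor 1 (3.98 RPKM). The same held for Cxcr2 (0.227 against 1.64 RPKM). Ccr6, with 23, 22 and 0 reads in the brain tumors, has no such ratio. Apart from Cxcl13, Cxcr2 and Ccl5, the genes with a ratio given here are best known from microglia, macrophages and monocytes. All 12 microglia and macrophage markers were also lowest in brain tumor 3 among the brain tumors. Csf1r, the growth factor receptor of these cells, was at 129.8, 130.3 and 50.1 RPKM in the brain and at 88.5 and 57.9 RPKM in the lung, P2ry12, a microglial marker, at 39.4, 31.3 and 5.36 RPKM in the brain and at 5.86 and 3.34 RPKM in the lung, and Tmem119, another, at 61.5, 55.0 and 6.16 RPKM in the brain and at 108 and 63.7 RPKM in the lung. Relative to Csf1r in the same library, Cx3cr1 was 0.534, 0.449 and 0.0539 in the brain tumors, so it was lowest in brain tumor 3 also on this scale. In the lung tumors this ratio was 0.221 and 0.266. Cx3cl1 (421, 612 and 398 RPKM), Ccl2 (4.15, 4.59 and 4.16), Cxcl1 (1.53, 1.27 and 1.61), Ccl28 (1.93, 1.71 and 1.88) and Cxcl14 (77.9, 55.5 and 51.9) varied over the brain tumors by at most 1.54 times. Of the tested members Ackr1, Ackr3, Ccl17, Cxcl1 and Cxcl2 had the highest of their brain values in brain tumor 3.

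**Figure D4:**
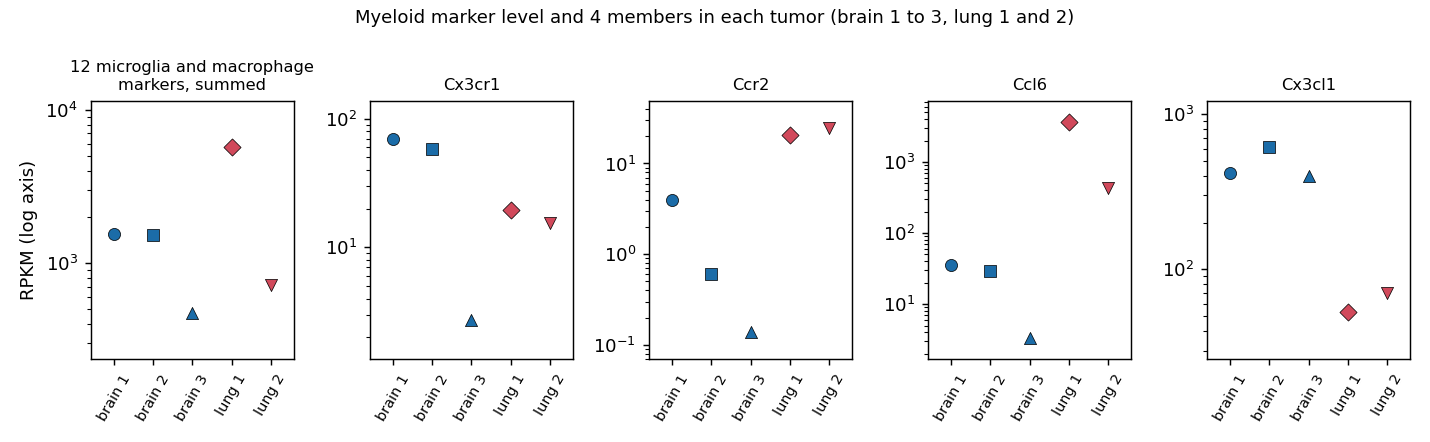
RPKM on log axes in each of the 5 tumors for the sum of 12 microglia and macrophage markers, the receptors Cx3cr1 and Ccr2 and the ligands Ccl6 and Cx3cl1; brain tumors in blue, lung tumors in red, 1 symbol per library. Brain tumor 3 is the lowest library for the markers, Cx3cr1, Ccr2 and Ccl6 but lies near the other brain tumors for Cx3cl1.

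Ligands are given beside the receptors they were listed for, without a test. For the fractalkine pair the ligand was higher in the brain tumors and the receptor was not called. For Cxcl12 both the ligand and its signalling receptor Cxcr4 were lower in the brain tumors, with log2 fold changes of -2.65 and -2.24, while the scavenger Ackr3 had -1.39 and was not called. Ccr2 (-3.50) was lower, as were 2 of the 4 tested ligands listed for it, Ccl2 (-3.54) and Ccl7 (-4.63). Ccl8 and Ccl12 were not called. Cxcr2 (-2.67) was lower, as was 1 of the 4 tested ligands listed for it, Cxcl2 (-3.49). Cxcl1, Cxcl5 and Cxcl15 were not called. Ccl6 (-6.21) and Ccl9 (-4.96) were lower together with their receptor Ccr1 (-3.16). The receptors of several called ligands were below the filter. Cxcr5, the receptor of Cxcl13, and Cxcr6, the receptor of Cxcl16, were above 0 in lung tumor 2 alone, at 2.45 and 1.56 RPKM. Ccr7, the receptor of Ccl21, was at 0.364, 0.101 and 0 against 0 and 5.51 RPKM and Ccr10, the receptor of Ccl27 and Ccl28, at 0.209, 0.115 and 0.263 against 0 and 0.107 RPKM; neither was tested.

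The 20 members that were not tested, 9 ligands and 11 receptors, stayed under 1 RPKM in every brain tumor. Of them 10 were above 0 in lung tumor 2 alone, among them Cxcr1, at 2.58 RPKM, and Xcr1, the receptor of cross-presenting dendritic cells, at 0.789 RPKM. For a gene above 0 in a single library the number of reads cannot be recovered. All 58 members were above 0 in lung tumor 2, whereas 25 were listed at 0 in lung tumor 1 and 12, 16 and 19 in the brain tumors. Cxcr3, the receptor of interferon-induced chemokines, was at 0.208, 0.230 and 0 against 0 and 1.39 RPKM, Ccr3 at 0.110, 0 and 0 against 0 and 0.226 RPKM and Ccr9 at 0.374, 0.0689 and 0.157 against 0 and 0.192 RPKM. Dendritic cell markers, summed over 7 genes, were at 74.7, 15.4 and 24.8 RPKM in the brain and 72.0 and 837 in the lung tumors.

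Other genes around the family were described from lists. Of 6 genes that the name rule leaves out, 5 were in the table and tested, and 3 were lower in the brain tumors. The platelet chemokine Ppbp, at 0, 0 and 0 RPKM in the brain and at 27.2 and 14.9 RPKM in the lung, was lower (limma adjusted p = 0.00233; 3 reads would have been 0.314 to 0.998 RPKM in the brain tumors), as were Rarres2, which encodes the chemoattractant chemerin, at 39.0, 19.1 and 19.5 against 2422 and 324 RPKM (log2 fold change -5.12, adjusted p = 0.0117), and Ccrl2, a receptor that binds chemerin, at 5.41, 1.82 and 3.16 against 13.6 and 25.6 RPKM (log2 fold change -2.22, adjusted p = 0.0340). Pf4, a chemokine of platelets that is also seen in macrophages, reached 3743 RPKM in lung tumor 1 against 43.6 in lung tumor 2 and 14.9, 1.94 and 1.65 in the brain tumors (log2 fold change -6.36, adjusted p = 0.0611). The chemerin receptor gene Cmklr1 was at 42.1, 43.8 and 14.2 against 80.2 and 222 RPKM (log2 fold change -2.12, adjusted p = 0.0699). The count of 3 fell to 1 without brain tumor 2 or 3. Of 32 genes for the steps below the receptors, all were tested, 4 (12.5%) were higher and 3 (9.38%) lower in the brain tumors (median log2 fold change -0.63), shares near the 14.3% and 8.12% of all tested mouse genes. The higher genes were the kinase Ptk2b, at 60.6, 172 and 137 against 17.2 and 19.0 RPKM (log2 fold change 2.57, adjusted p = 0.0174), the engulfment adaptor Elmo1, at 39.8, 38.0 and 43.9 against 2.50 and 14.1 RPKM (log2 fold change 2.52, adjusted p = 0.0401), and the G protein subunits Gnai1, at 38.9, 48.8 and 68.3 against 4.03 and 16.9 RPKM (log2 fold change 2.45, adjusted p = 0.0370), and Gng2, at 346, 295 and 353 against 139 and 119 RPKM (log2 fold change 1.35, adjusted p = 0.0235). In lung tumor 1 Elmo1 rested on 2 reads and Gnai1 on 3. Elmo1, Gnai1 and Ptk2b are long genes (implied lengths of 3455, 3208 and 3502 bases), and long genes lay low in lung tumor 1. The lower genes included the myeloid kinase Fgr, at 1.65, 1.08 and 0.0473 against 12.3 and 21.7 RPKM (log2 fold change -3.28, adjusted p = 0.0123), and the G protein regulator Rgs1, at 2.31, 1.70 and 2.00 against 18.0 and 20.2 RPKM (log2 fold change -2.74, adjusted p = 0.00624). The count of 7 was 3, 0 and 2 without brain tumor 1, 2 or 3 and 10 and 15 without lung tumor 1 or 2.

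Because the cancer cells are human, the human table was read for genes of the same symbol, which it held for 23 of the 58 members. At most 5 human reads in any library were found for 16 of these, among them Cx3cl1, Cxcl12, Cxcl13, Cxcl17, Cx3cr1 and Cxcr4. Of the called members, Ccl2, Cxcl2 and Cxcl16 had more. Human CCL2 had 378, 130 and 93 reads for brain against 803 and 22 for lung, where mouse Ccl2 had 11, 22 and 35 reads for brain against 35 and 120 for lung. Per length and library total, human CCL2 was at 50.5, 22.8 and 42.9 RPKM in the brain and at 139 and 6.61 RPKM in the lung, so that it was highest in lung tumor 1, as was mouse Ccl2. Human CXCL2 had 32, 25 and 11 reads for brain against 81 and 271 for lung, more in every library than mouse Cxcl2 (1, 0 and 7 reads for brain against 11 and 40 for lung). Human CXCL16 had 348, 265 and 113 reads for brain against 210 and 197 for lung, and mouse Cxcl16 had 78, 100 and 48 reads for brain against 41 and 765 for lung. Whether reads of these 3 genes were assigned to the wrong species was not tested.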

How the data were processed

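RNA sequencing values were used as the authors deposited them, in RPKM, in 1 table of mouse and 1 of human genes. Builds were mm10 (GRCm38) and hg38 (GRCh38), per the submitters' processing notes. For the aligner, counter, strand setting, gene lengths and species assignment: not given in the sources used here. Columns were matched by the library numbers in the labels, and 0 were left unmapped. Tables list genes above 0 in at least 1 library. Whole reads were recovered from the RPKM by 1 factor per library, within 0.001 reads, except for the 3995 mouse genes above 0 in 1 library, whose read number is not fixed.

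The 15431 mouse genes that reached an RPKM of 1 in 2 libraries were fitted on log2(RPKM + 1) with limma 3.58.1 in R 4.3.3, brain minus lung, eBayes with trend. P-values were two-sided with Benjamini-Hochberg adjustment over all tested genes; folds on this scale understate changes of low genes. The fit was also run on simulated reads with 1 spread for all genes and no effect of gene length. That run cannot tell how the fit behaves on these libraries. An exact permutation of 3 against 2 libraries was not used. The members, lists and tests were chosen with earlier results of these data known. The called members were named, the 4 of highest mean RPKM per role group, and the 5 uncalled ligands and receptors of lowest unadjusted p. From the signalling list up to 4 called genes per direction were named, and single markers were chosen after their values were seen. Alternatives were pseudocounts of 0.1 and 0.5, other filters and scalings, eBayes without trend, voom on recovered reads, a replicate block, leaving out each library and, chosen after seeing the data, a gene-length correction in 20 bins. No mouse sequence or annotation was used here, so no positions are given. The values of 3 genes, 1 tested receptor, 1 gene of the signalling list and 1 marker, are counted but not reported here.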

Additional observations from a re-analysis of the deposited data

How the results depend on the processing

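Of the 20 called members, Cx3cl1 and Cxcl13 kept their call in each of the 15 alternatives. Cxcl17 and Ccl21a kept it where tested, but could not be tested without either lung tumor. Of the 20, 0 changed sign where tested. The higher ligands numbered 1 with the replicate block. The lower ligands numbered 6 with no filter. The lower receptors numbered 1 with a pseudocount of 0.1, 3 with no filter and 0 with the replicate block, where limma gave unadjusted p-values under 0.05 for 4009 mouse genes. The signalling list had 4 called genes with a pseudocount of 0.1, 3 with no filter, 11 with gene-length correction and 0 with the replicate block. Leaving out 1 library gave 1 to 4 higher and 3 to 12 lower ligands, 0 to 1 higher and 0 to 5 lower receptors, 0 to 15 genes of the signalling list and 1 to 3 of the genes outside the name rule. The replicate numbers pair nothing in the labels, and the deviations of same-numbered libraries correlated at 0.035 and 0.050. Over the tested mouse genes the median log2 fold change was 0.08, against 0.22 with median-ratio scaling (69.0% of 3605 calls higher), -0.11 with quantile normalization (54.0% of 3965), -0.06 with gene-length correction and 0.43 without lung tumor 2, where 1 lung library is taken to spread as the brain libraries do; as deposited 63.8% of 3457 calls were higher. The 3457 calls became 2295 with no filter, 1484 with the replicate block, 1642, 1245 and 1370 without brain tumor 1, 2 or 3 and 8084 without lung tumor 2. Depth limits lung tumor 1 most.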
